A study of Mus musculus with 6 samples.

Results

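The 10 genes described here are the transcription factor gene Nfe2l2, which encodes Nrf2, and 9 genes of antioxidant enzymes that are commonly read as its response: Nqo1, Hmox1, Gclc, Gclm, Txnrd1, Srxn1, Gpx1, Gpx3 and Sod2. They were taken by symbol, whatever their values, as a set proposed with earlier results of these data known. All 10 were found among the 46983 genes of the count table and passed the filter on low counts, which 14450 genes passed. The RNA came from C2C12 myotubes, a mouse muscle line of wild-type genotype whose myoblasts fuse into multinucleated fibres when serum is lowered. After 7 days in differentiation medium the myotubes received corticosterone, the main glucocorticoid of rodents, at 1e-07 M, or ethanol at 1 µL/mL as vehicle, both for 24 h. There were 3 libraries of each treatment, called corticosterone 1 to 3 and vehicle 1 to 3 below after their labels, and the submitters call the replicates independent. All 6 libraries come from 1 cell line, and a culture can still hold unfused or dividing myoblasts beside the myotubes.

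Nrf2 is held in the cytosol by Keap1, which presents it to a Cul3 ubiquitin ligase for degradation. Oxidants and electrophiles modify Keap1, and the Nrf2 that then escapes enters the nucleus, pairs with a small Maf protein and binds antioxidant response elements beside its target genes. The targets make glutathione and NADPH, reduce peroxides and quinones and break down haem. Nrf2 activity is set largely at the level of the protein, so the mRNA of Nfe2l2 is not a measure of it. Gpx1, Gpx3 and Txnrd1 encode selenoenzymes, whose synthesis also depends on selenium.

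In 2 libraries, genes that glucocorticoids are known to induce went against the labels. Fkbp5, which encodes a co-chaperone of the glucocorticoid receptor, stood at 151, 36.9 and 135 CPM (counts scaled to library size after TMM normalisation) in corticosterone 1, 2 and 3, against 36.9, 177 and 35.4 CPM in vehicle 1, 2 and 3. Tsc22d3, the glucocorticoid-induced leucine zipper gene, and Per1, a clock gene, were likewise high in corticosterone 1 and 3 and vehicle 2 and low in the other 3 libraries. Differences between the labels are therefore given with all 6 libraries and again without corticosterone 2 and vehicle 2. Those 2 libraries were chosen by these genes in the same data, and the 4 libraries left divide by Fkbp5 as they do by label. The second reading is thus a description. Its SE and adjusted p values support no inference, least of all for genes that follow Fkbp5. Total counts ran from 23877583 to 29928653. Vehicle 1 and 2 also stood apart: mitochondrially encoded genes held 1.69 and 1.67% of their counts, against 2.39 to 2.76% in the other 4 libraries. The summed level of 8 myotube markers, among them Myog, Ckm, Acta1 and Ttn, was 13097 to 15243 CPM in libraries labelled corticosterone and 9365 to 13265 CPM in those labelled vehicle, lowest in vehicle 1 and 2. Of these 8, 7 lay higher and 1 lower (log2 differences, corticosterone minus vehicle, from -0.04 to 1.21), where 50.8% of all genes lay higher. By edgeR, 2 had an unadjusted p under 0.05, against 11.8% of all genes, and 0 were called. Higher without overlap was 1, against 8.41% of all genes, and 0 lay lower in this way, against 8.19%. Without corticosterone 2 and vehicle 2, 0 of the 8 lay lower. The 8 markers of undifferentiated or dividing myoblasts summed to 291 to 366 CPM against 320.1 to 359 CPM. Single markers of these 8 went both ways, 4 higher and 4 lower (log2 differences, corticosterone minus vehicle, from -0.53 to 0.36). By edgeR, 3 of the 8 had an unadjusted p under 0.05, against 11.8% of all genes, and 0 were called. DESeq2 called 1, against 0.955% of all genes. Lower in corticosterone without overlap were 2, against 8.19% of all genes, and 0 lay higher in this way, against 8.41%. The 5 macrophage and leukocyte markers summed to 1.73 to 2.69 CPM against 1.103 to 2.09 CPM, with Ptprc and Adgre1 at 0 counts in every library, and the 4 endothelial markers summed to at most 0.743 CPM in each. In RNA from whole cultures, fewer cells of a type and less RNA per cell cannot be told apart.

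Promoter windows of 300 bases, from 250 bases before to 50 bases after a gene's start, were available from RefSeq on GRCm38.p6 for 8 of the 10 genes (10 windows). 3 are shown, because they stand for the regulator, for a target with the site Nrf2 and Maf share, and for the member that varied most. Capitals mark the antioxidant response element core TGACNNNGC or the longer Nrf2-Maf site TGANTCAGC, read on both strands. A match on the other strand appears as its reverse complement.
Nfe2l2, chr2:75704614-75704913, minus strand: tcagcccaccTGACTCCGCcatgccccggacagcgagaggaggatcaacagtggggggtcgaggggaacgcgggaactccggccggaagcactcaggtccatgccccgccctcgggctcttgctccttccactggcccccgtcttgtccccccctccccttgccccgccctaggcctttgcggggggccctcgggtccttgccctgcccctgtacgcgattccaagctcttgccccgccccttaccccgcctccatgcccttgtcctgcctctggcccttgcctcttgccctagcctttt
Srxn1, chr2:152105274-152105573, plus strand: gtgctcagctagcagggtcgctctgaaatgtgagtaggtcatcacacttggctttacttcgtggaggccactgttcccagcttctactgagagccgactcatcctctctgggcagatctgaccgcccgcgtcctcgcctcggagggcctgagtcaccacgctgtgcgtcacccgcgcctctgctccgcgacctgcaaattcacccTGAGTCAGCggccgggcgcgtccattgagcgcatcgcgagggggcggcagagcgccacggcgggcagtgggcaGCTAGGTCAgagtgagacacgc
Gpx3, chr11:54902604-54902903, plus strand: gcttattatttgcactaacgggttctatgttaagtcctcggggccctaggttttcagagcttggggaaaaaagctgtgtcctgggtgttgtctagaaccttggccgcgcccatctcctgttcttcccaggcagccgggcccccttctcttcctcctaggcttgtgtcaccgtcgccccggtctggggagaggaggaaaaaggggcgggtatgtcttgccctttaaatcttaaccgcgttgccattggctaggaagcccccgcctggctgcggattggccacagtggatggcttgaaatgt
In the Srxn1 window the site TGAGTCAGC began 45 bases before the start, and it was the only one of the 10 windows with TGANTCAGC, which 1.19% of 32851 windows of the same length held. That site contains the AP-1 motif TGANTCA, a second copy of which lay 102 bases before the start (7.81% of windows held TGANTCA). The core TGACNNNGC was found in 1 window each of 4 genes, among the 8 genes and 10 windows searched. Of all windows, 12.4% held it. The matches were TGACTCCGC 240 bases before the start of Nfe2l2, TGACGGTGC in Gclm and TGACCTAGC past the start of Srxn1. In Txnrd1, TGACAAAGC lay in 1 of the 3 windows, which gave this gene more room for a match. The Gpx3 window held none of these letters, and none of the 10 windows held the consensus glucocorticoid response element, which 0.414% of all windows held. The starts are those of RefSeq, and the Gpx3 and Sod2 windows lie wholly inside the gene spans given below. For Gpx3 and Sod2, no bases before the start of that span were searched. All these are matches of letters in short windows and not measured binding sites, and more distant elements were not searched.

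No gene of the 10 was called between corticosterone and vehicle. edgeR's quasi-likelihood test, adjusted over all 14450 genes, called 0 of the 10, where it called 0% of all genes, and DESeq2 and limma-voom also called 0 of the 10 (DESeq2 called 0.955% of all genes). By label, Fkbp5, Tsc22d3 and Per1 were not called by these tests either (smallest edgeR adjusted p = 0.61, 0 at an unadjusted p under 0.05). Tests by label that missed those 3 genes cannot show that the 10 did not respond. At an unadjusted p under 0.05 there was 1 of the 10, Nfe2l2, against 11.8% of all genes. On the log2 scale, corticosterone minus vehicle, 6 of the 10 differences lay below 0 and 4 above, with a median of -0.16, where the median of all genes was 0.004 49.2% lay below 0 and 50.8% above. Levels did not overlap between the labels in 2 of the 10, Nfe2l2 and Nqo1, both lower in the libraries labelled corticosterone, and 8.19% of all genes lay lower in this way. None of the 10 lay higher without overlap, as 8.41% of all genes did. Without corticosterone 2 and vehicle 2, edgeR again called 0 of the 10, against 0.0208% of all genes, with 6 differences below 0 and 4 above (smallest adjusted p = 0.773). The genes called in that setting included 2 of the 3 glucocorticoid-induced genes by which those libraries were chosen. In the 4 libraries left, 5 of the 10 did not overlap, against 37.1% of all genes.

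**Figure D1:**
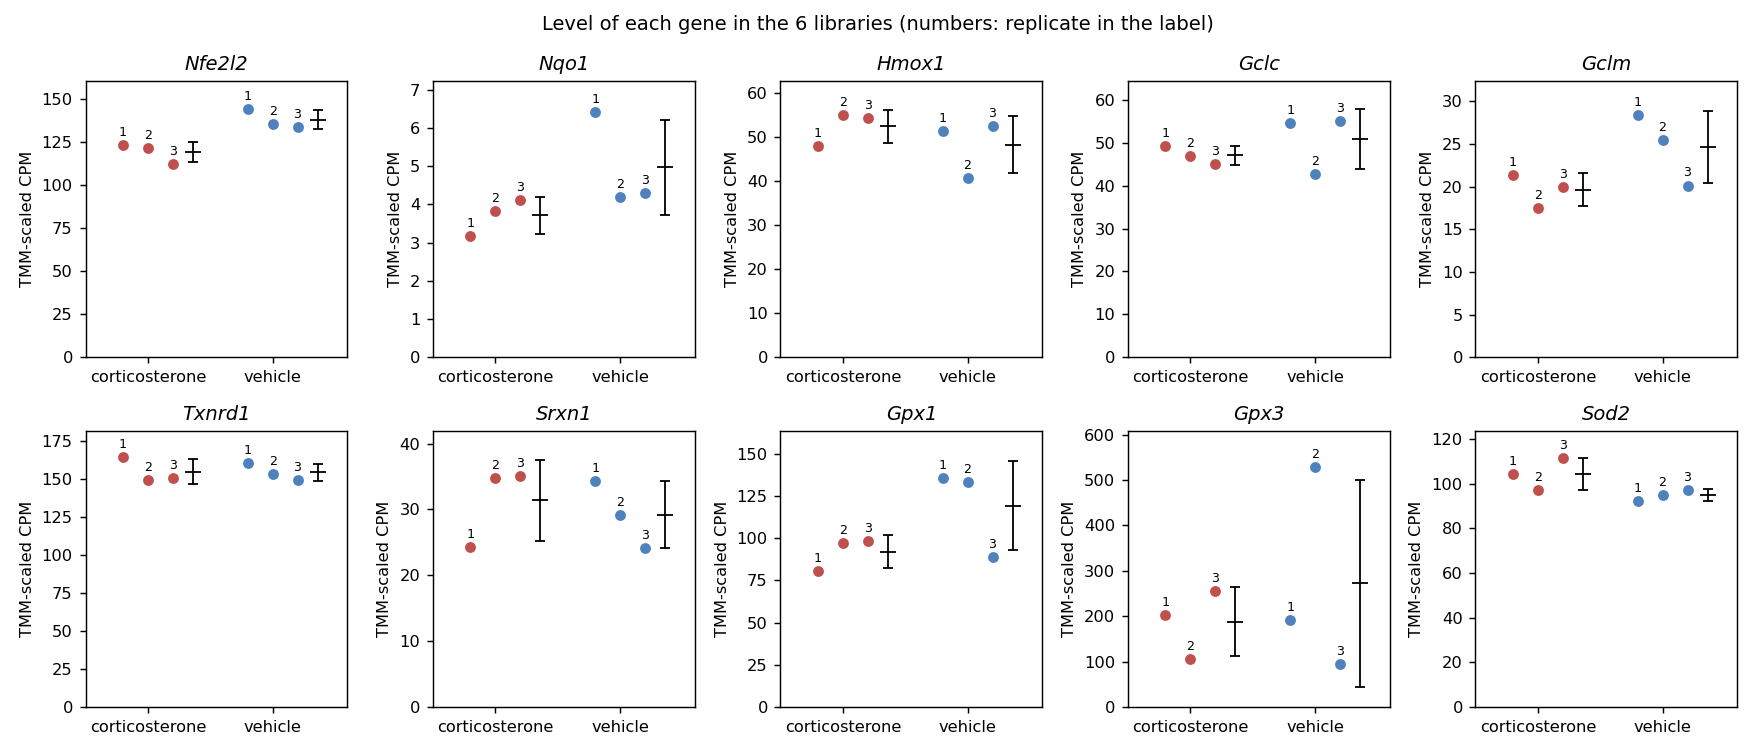
TMM-scaled CPM of the 10 genes in each library, with the corticosterone libraries on the left, the vehicle libraries on the right and the replicate number of the label above each point; bars give mean and SD (n = 3). Nfe2l2 and Nqo1 do not overlap between the labels, and Gpx3 has the widest range, with vehicle 2 at 529 CPM.

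Nfe2l2 (ENSMUSG00000015839, GRCm38 chromosome 2, 75675513 to 75704641, minus strand) stood at 123, 121 and 112 CPM in corticosterone 1, 2 and 3, against 144, 135 and 134 CPM in vehicle 1, 2 and 3. Every library labelled vehicle lay above every library labelled corticosterone. The mean was 119 ± 5.88 CPM in corticosterone and 138 ± 5.58 CPM in vehicle (SD, n = 3 each). The log2 difference was -0.21 ± 0.07 (SE, unadjusted 95% interval -0.38 to -0.04), with an edgeR adjusted p of 0.367, so it did not pass over all genes. DESeq2 gave an adjusted p of 0.26. With any 1 library left out, the difference ran from -0.24 to -0.17, and without corticosterone 2 and vehicle 2 it was -0.24 ± 0.11 (adjusted p = 0.773). The separation did not follow Fkbp5: vehicle 2, high in Fkbp5, and vehicle 1 and 3, low in it, all lay above the corticosterone libraries.

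Nqo1 encodes a quinone reductase that uses NADH or NADPH and is a classical Nrf2 target, and Hmox1 encodes haem oxygenase 1, which cleaves haem to biliverdin, iron and carbon monoxide. Nqo1 (chromosome 8, 107388225 to 107403206) was the least abundant of the 10, with counts of 91, 112 and 105 in corticosterone 1, 2 and 3, against 164, 122 and 103 in vehicle 1, 2 and 3. These were 3.18, 3.84 and 4.12 CPM in corticosterone, against 6.41, 4.21 and 4.30 CPM in vehicle. The groups did not overlap, but corticosterone 3 lay just under vehicle 2, and vehicle 1 alone stood well above the rest. The log2 difference was -0.42 ± 0.22 (edgeR adjusted p = 0.483), with -0.20 without vehicle 1 and -0.55 ± 0.30 without corticosterone 2 and vehicle 2 (adjusted p = 0.795). Hmox1 (chromosome 8, 75093621 to 75100589) gave 47.9, 54.8 and 54.2 CPM in corticosterone, against 51.4, 40.7 and 52.4 CPM in vehicle. Vehicle 2 was the lowest and the other 5 libraries lay close together. Its log2 difference of 0.12 ± 0.115 (adjusted p = 0.674) was -0.02 ± 0.115 without corticosterone 2 and vehicle 2.

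Gclc and Gclm encode the catalytic and modifier subunits of glutamate-cysteine ligase, the rate-limiting enzyme of glutathione synthesis. Gclc (chromosome 9, 77754535 to 77794485) stood at 49.3, 46.9 and 45.0 CPM in corticosterone 1, 2 and 3, against 54.6, 42.7 and 55.0 CPM in vehicle 1, 2 and 3. Vehicle 1 and 3 lay above every corticosterone library and vehicle 2 below them all (log2 difference -0.11 ± 0.11, edgeR adjusted p = 0.694). The difference was -0.06 without vehicle 3, -0.22 ± 0.09 without vehicle 2 (adjusted p = 0.659) and -0.22 ± 0.11 without corticosterone 2 and vehicle 2 (adjusted p = 0.79). Gclm (chromosome 3, 122245557 to 122270732) gave 21.4, 17.5 and 19.9 CPM in corticosterone, against 28.4, 25.4 and 20.1 CPM in vehicle. Vehicle 1 and 2 were the highest, and vehicle 3 lay among the corticosterone libraries. The log2 difference of Gclm was -0.33 ± 0.14 (unadjusted 95% interval -0.67 to 0.01, adjusted p = 0.427), and -0.23 ± 0.19 without corticosterone 2 and vehicle 2 (adjusted p = 0.864). In vehicle 2 the subunits thus went apart, with Gclc at its lowest and Gclm at its second highest. Gclm shares 296 exon bases with the antisense transcript Gm17494, which had 1 to 7 counts, and 244 with the pseudogene Gm6061, which had 0. Without strand, reads over the bases shared with Gm17494 cannot be assigned to a single gene. Gm6061 lies on the same strand as Gclm, so strand would not separate reads over the bases it shares. How reads over shared bases were counted is not given.

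Txnrd1 encodes cytosolic thioredoxin reductase, which recycles thioredoxin with NADPH, and Srxn1 encodes sulfiredoxin, which restores overoxidised peroxiredoxins. Txnrd1 (chromosome 10, 82833951 to 82897712) was the steadiest of the 10: 165, 149 and 151 CPM in corticosterone 1, 2 and 3, against 160.5, 153 and 149.7 CPM in vehicle 1, 2 and 3. The highest library was 1.101 times the lowest. Its log2 difference was 0.005 ± 0.07 (edgeR adjusted p = 0.983), with an unadjusted 95% interval of -0.17 to 0.18, and it was 0.02 ± 0.11 without corticosterone 2 and vehicle 2. It lay below 0 with upper quartile scaling and with library totals alone. Srxn1 (chromosome 2, 152105516 to 152111376), whose promoter window with the Nrf2-Maf site is printed above, gave 24.3, 34.7 and 35.1 CPM in corticosterone, against 34.3, 29.1 and 24.2 CPM in vehicle. Corticosterone 1 and vehicle 3 were the lowest and nearly equal, so each group spanned almost the whole range. The log2 difference was 0.10 ± 0.18 (adjusted p = 0.83). It was 0.02 ± 0.24 without corticosterone 2 and vehicle 2 (adjusted p = 0.994), 0.255 without corticosterone 1 and -0.03 without vehicle 3.

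Gpx1 and Gpx3 encode glutathione peroxidases that reduce peroxides with glutathione, Gpx1 inside the cell and Gpx3 as a secreted enzyme found in plasma. Gpx1 (chromosome 9, 108338903 to 108340343) stood at 80.8, 97.1 and 98.3 CPM in corticosterone 1, 2 and 3, against 136, 133 and 88.9 CPM in vehicle 1, 2 and 3. Vehicle 1 and 2 lay well above the other 4 libraries, and vehicle 3 lay inside the range of corticosterone. The log2 difference was -0.37 ± 0.17 (unadjusted 95% interval -0.77 to 0.02, edgeR adjusted p = 0.433), and it was -0.56 (adjusted p = 0.0746) without vehicle 3 and -0.28 (adjusted p = 0.93) without vehicle 1. It was -0.33 ± 0.22 without corticosterone 2 and vehicle 2 (adjusted p = 0.838). Vehicle 1 and 2 were the 2 highest libraries for 3 of the 10 genes, Gpx1, Gclm and Nfe2l2, as for 16.8% of all genes tested. These are the 2 libraries with the lowest mitochondrial share and the lowest summed myotube markers, and the part of either in these levels was not tested.

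Gpx3 (ENSMUSG00000018339, chromosome 11, 54902453 to 54910377) varied most. It stood at 203, 105 and 256 CPM in corticosterone 1, 2 and 3, against 192, 529 and 95.3 CPM in vehicle 1, 2 and 3, so that the highest library was 5.55 times the lowest. Vehicle 2 stood far above every other library, and each label held both low and high libraries. The mean was 188 ± 76.5 CPM in corticosterone and 272 ± 228 CPM in vehicle (SD, n = 3 each). The log2 difference of -0.54 ± 0.59 (edgeR adjusted p = 0.718) had an unadjusted 95% interval of -1.92 to 0.85, and its sign depended on the doubted libraries: it was 0.385 without vehicle 2 (adjusted p = 0.851) and 0.67 ± 0.32 without corticosterone 2 and vehicle 2 (adjusted p = 0.778). In the 4 libraries that remain, Gpx3 stood at 203 and 256 CPM in corticosterone 1 and 3, against 192 and 95.3 CPM in vehicle 1 and 3.

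**Figure D2:**
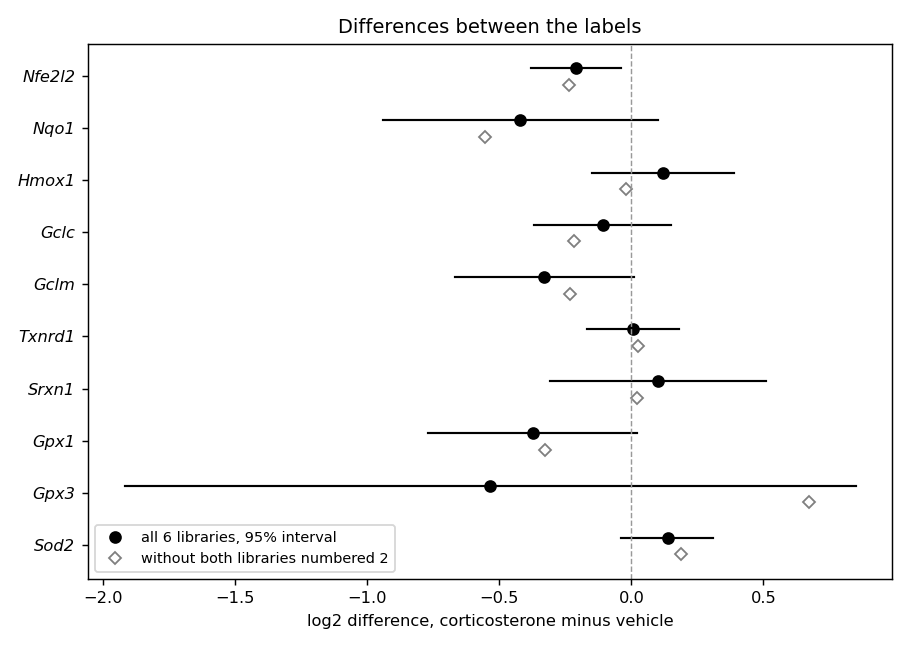
Log2 difference, corticosterone minus vehicle, of the 10 genes with all 6 libraries (filled points, with the unadjusted 95% interval) and without corticosterone 2 and vehicle 2 (open diamonds). The interval of Gpx3 runs from -1.92 to 0.85 and its estimate changes sign to 0.67, while Nfe2l2 stays near -0.2.

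Sod2 encodes the manganese superoxide dismutase of mitochondria, which turns superoxide into hydrogen peroxide, and is known as a target of NF-kB as well. Sod2 (chromosome 17, 13006846 to 13040063) gave 104, 97.1 and 111 CPM in corticosterone 1, 2 and 3, against 92.3, 95.0 and 97.4 CPM in vehicle 1, 2 and 3. Corticosterone 1 and 3 lay above every vehicle library, and corticosterone 2 lay just under vehicle 3. The log2 difference was 0.14 ± 0.08 (unadjusted 95% interval -0.04 to 0.31, edgeR adjusted p = 0.499), and 0.19 ± 0.11 without corticosterone 2 and vehicle 2 (adjusted p = 0.801).

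Levels were compared between genes as CPM per kilobase of exon, taking the union of a gene's annotated exons as its length. Gpx3 was the most abundant on this scale, at 104 ± 42.2 in corticosterone and 150.1 ± 126 in vehicle (SD, n = 3 each), and Gpx1 was next at 63.9 ± 6.80 and 82.8 ± 18.3. The ranges of these genes over the 6 libraries overlapped, since Gpx3 ran from 52.6 to 292 CPM per kilobase. Nfe2l2 followed at 31.4 ± 1.55 in corticosterone and 36.3 ± 1.47 in vehicle, overlapping Hmox1 at 29.9 ± 2.18 and 27.5 ± 3.70. Txnrd1, at 21.9 ± 1.17 and 21.8 ± 0.776, stood apart from its neighbours on both sides, though the lowest library of Hmox1 lay only just above it. Gclc, Srxn1 and Sod2 came next, with Gclc overlapping Srxn1 and Srxn1 overlapping Sod2, at means over the 6 libraries of 12.995, 10.7 and 9.95 CPM per kilobase. Gclm and Nqo1, at 3.52 and 2.80, were lowest and overlapped each other, but every library of Sod2 lay above them. Sod2, Txnrd1 and Gclm have long exon unions (10008, 7086 and 6291 bases), so their levels per kilobase are understated if the cells use shorter transcripts.

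The 10 genes were also read over the libraries high in Fkbp5, namely corticosterone 1, corticosterone 3 and vehicle 2, beside corticosterone 2, vehicle 1 and vehicle 3. These sets were read off glucocorticoid-induced genes in the same data and are not treatment groups, so their values are given with no mean, fold or test. Gpx3 was the 1 gene of the 10 that did not overlap: 203, 256 and 529 CPM beside 105, 192 and 95.3 CPM. The nearest libraries were corticosterone 1 and vehicle 1. Among all genes tested, 9.63% did not overlap, of which 4.89% of all genes lay higher in this way and 4.74% lower, and 0 of the 10 lay lower. The other 9 genes overlapped. Hmox1, for example, stood at 47.9, 54.2 and 40.7 CPM beside 54.8, 51.4 and 52.4 CPM, and Gclc at 49.3, 45.0 and 42.7 CPM beside 46.9, 54.6 and 55.0 CPM.

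**Figure D3:**
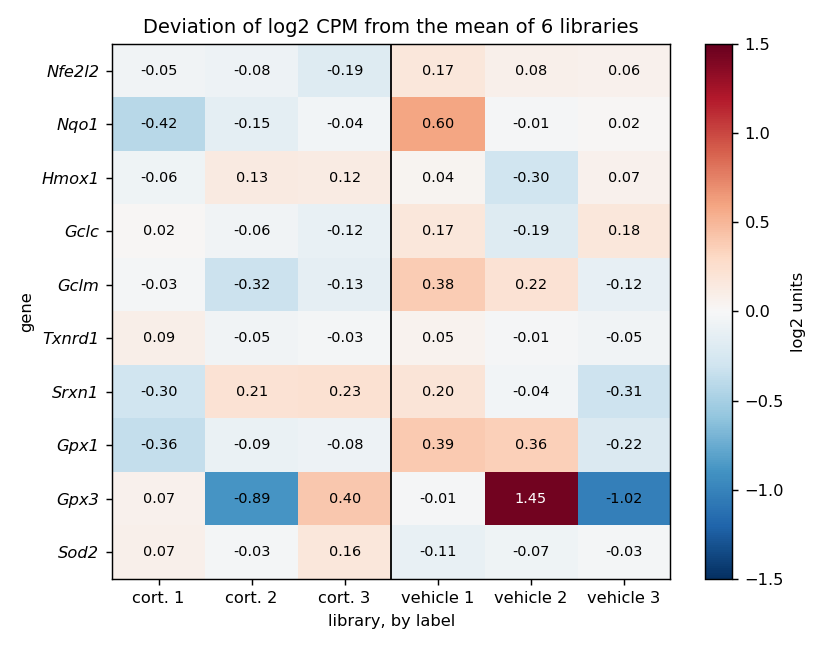
Log2 CPM of each gene in each library minus the mean of the 6 libraries, with corticosterone libraries left of the line and vehicle libraries right of it. Gpx3 reaches 1.45 in vehicle 2 and -1.02 in vehicle 3, while Txnrd1 stays between -0.05 and 0.09.

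The genes whose pattern was most like that of Gpx3, by Pearson's r of log2 CPM over the 6 libraries among 10639 other genes with a mean of at least 5 CPM, were Il6ra (r = 0.994), Slc19a1 (r = 0.982) and Kctd10 (r = 0.981). Il6ra encodes a subunit of the interleukin-6 receptor and Slc19a1 a folate carrier. Il6ra stood at 12.7, 9.69 and 15.0 CPM in corticosterone 1, 2 and 3, against 13.2, 24.5 and 8.81 CPM in vehicle 1, 2 and 3, so it too was highest in vehicle 2, but vehicle 1 lay above corticosterone 1. Of the glucocorticoid-induced genes, Fkbp5 ranked 335 in this order (r = 0.818), Tsc22d3 ranked 415 (r = 0.801) and Per1 ranked 929 (r = 0.686). With 6 libraries and so many genes, high values of r are a description only.

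Around the 10 genes, lists of the pathway were read in the same fit, and edgeR, DESeq2 and limma-voom each called 0 genes in every one of them. The counts below at an unadjusted p under 0.05 stand beside 11.8% of all genes tested. Counts without overlap between the labels stand beside 8.41% of all genes that lay higher in corticosterone in this way and 8.19% that lay lower. The 14 regulators of Nrf2 that were found divided evenly, 7 higher and 7 lower in corticosterone (median log2 difference 0.004), with 1 at an unadjusted p under 0.05. This was Cul3, the scaffold of the ligase that degrades Nrf2, at 246, 251 and 246 CPM in corticosterone 1, 2 and 3, against 202, 214 and 235 CPM in vehicle 1, 2 and 3. The groups did not overlap, and the log2 difference was 0.19 ± 0.08 (edgeR adjusted p = 0.416). Of the 14, 1 lay higher without overlap and 1 lower. Keap1, the sensor, stood at 40.2, 39.2 and 41.6 CPM against 41.3, 44.0 and 38.5 CPM. Sesn2, a stress-induced sestrin, differed by 0.34 ± 0.16. The abundant Nfe2l1, a relative of Nrf2, and Sqstm1, an autophagy receptor that binds Keap1, differed by -0.06 ± 0.09 and -0.10 ± 0.09. Of the 14, 6 lay lower without corticosterone 2 and vehicle 2, and the differences were 0.17 ± 0.12 for Cul3, 0.12 ± 0.16 for Sesn2, -0.10 for Nfe2l1 and -0.10 for Sqstm1.

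Of the 22 genes tested in the glutathione system, 18 lay lower and 4 higher (median -0.14), where 49.2% of all genes lay lower, with 0 at an unadjusted p under 0.05. Without corticosterone 2 and vehicle 2, 17 of the 22 lay lower. By label, 0 of the 22 lay higher or lower without overlap. The smallest p values belonged to Gstz1, a glutathione transferase, at 21.9, 22.1 and 26.0 CPM in corticosterone against 30.3, 30.6 and 24.3 CPM in vehicle, and to Slc7a11, the cystine carrier that feeds glutathione synthesis, at 3.84, 8.05 and 5.07 CPM against 10.4, 5.86 and 10.1 CPM. Gstz1 was highest in vehicle 1 and 2, and Slc7a11 was high in vehicle 1 and 3 and low in vehicle 2. Slc7a11 lay lower without overlap in the libraries high in Fkbp5. So did 3 of the 22 with it counted, against 4.74% of all genes, and 1 lay higher, against 4.89%. Their log2 differences were -0.28 ± 0.12 and -0.64 ± 0.32 (edgeR adjusted p = 0.426 and 0.467). Slc7a11 moved to -1.21 ± 0.22 without corticosterone 2 and vehicle 2 (adjusted p = 0.429) and to -0.42 without corticosterone 1, and Gstz1 to -0.19 ± 0.17 without both libraries. Corticosterone 2 and vehicle 2 were chosen by Fkbp5 and genes like it. Slc7a11 is low where Fkbp5 is high, so its size and SE without them support no inference. Gpx4, which reduces lipid peroxides, stood at 200.5, 207 and 255 CPM in corticosterone against 297, 296 and 208 CPM in vehicle, the same order of vehicle libraries as Gpx1. Its log2 difference was -0.27 ± 0.16, and -0.15 ± 0.21 without both libraries. Glo1, a glyoxalase, differed by -0.08 ± 0.08, and by -0.01 ± 0.11 without them.

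Of the 18 thioredoxin and peroxiredoxin genes, 12 lay lower and 6 higher (median -0.02), with 1 at an unadjusted p under 0.05. The majority turned without corticosterone 2 and vehicle 2, with 8 of the 18 lower (median 0.02). Msra, which reduces oxidised methionine, stood at 5.97, 4.97 and 4.56 CPM in corticosterone against 7.70, 6.96 and 6.26 CPM in vehicle, without overlap (log2 difference -0.43 ± 0.16, edgeR adjusted p = 0.388). Prdx6 differed by -0.17 ± 0.08. Msra and Prdx6 were the 2 of the 18 that lay lower without overlap, and 0 lay higher. The abundant peroxiredoxin genes Prdx1 and Prdx2, whose products sulfiredoxin repairs, stood at 363 ± 46.8 and 347 ± 34.5 CPM in corticosterone and at 370.3 ± 37.9 and 354 ± 17.8 CPM in vehicle (SD, n = 3 each). Both were lowest in corticosterone 1, as was Gpx1, and vehicle 3 was next in both. Without both doubted libraries the differences were -0.41 ± 0.24 for Msra, -0.18 ± 0.12 for Prdx6, -0.035 ± 0.18 for Prdx1 and -0.03 ± 0.14 for Prdx2.

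Other enzymes that remove superoxide and peroxides gave 4 higher and 3 lower of 7 (median 0.02), with 1 at an unadjusted p under 0.05. This was Pon2, a paraoxonase with antioxidant activity, at 76.9, 71.9 and 63.2 CPM in corticosterone against 93.3, 89.4 and 82.1 CPM in vehicle, without overlap (log2 difference -0.32 ± 0.09, edgeR adjusted p = 0.364). Sod3, the secreted superoxide dismutase, ranged widely, at 89.6, 219 and 181 CPM against 160.1, 137 and 94.6 CPM. Oxr1 differed by 0.02 ± 0.12 and Nnt, a mitochondrial source of NADPH, by 0.15 ± 0.10. Pon2 was the 1 of the 7 that lay lower without overlap by label, and 0 lay higher in this way. Without corticosterone 2 and vehicle 2, 2 of the 7 lay lower. Pon2 then differed by -0.32 ± 0.14, Sod3 by 0.09 ± 0.38 (0.32 ± 0.32 with all 6), Oxr1 by 0.01 ± 0.17 and Nnt by 0.02 ± 0.12. NADPH supply gave 5 higher and 5 lower of 10 (median 0.02), with 0 at an unadjusted p under 0.05 and 0 without overlap. G6pdx, which opens the pentose phosphate pathway, differed by 0.14 ± 0.10, the NAD kinase gene Nadk by 0.14 ± 0.08 and Idh1 by 0.05 ± 0.08. Without the same libraries 5 of the 10 lay lower, and these genes differed by 0.03 ± 0.12, 0.06 ± 0.11 and 0.04 ± 0.12 in that order.

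Of the 13 genes of haem and iron handling, 7 lay lower and 6 higher (median -0.06), with 3 at an unadjusted p under 0.05, against 11.8% of all genes. The iron exporter gene Slc40a1, which encodes ferroportin, stood at 8.31, 10.7 and 5.34 CPM in corticosterone against 21.1, 14.4 and 11.4 CPM in vehicle. The groups did not overlap, and the log2 difference of -0.95 ± 0.30 was the most negative in the list (edgeR adjusted p = 0.364, DESeq2 adjusted p = 0.0922). Slc40a1 was the 1 of the 13 that lay lower without overlap, and 1 lay higher. The haem transporter gene Slc48a1 gave 55.3, 65.3 and 54.9 CPM against 94.1, 77.7 and 60.4 CPM, overlapping between the labels (log2 difference -0.40 ± 0.16). Tfrc, the transferrin receptor gene, went the other way, at 240.0, 219.8 and 247 CPM in corticosterone against 170.0, 155 and 229 CPM in vehicle, and was named after its values were seen (log2 difference 0.35 ± 0.15, adjusted p = 0.411). It was lowest in vehicle 1 and 2, where Slc48a1 and Slc40a1 were highest. The ferritin genes Fth1 and Ftl1 differed by -0.25 ± 0.15 and -0.27 ± 0.13. Without corticosterone 2 and vehicle 2, 8 of the 13 lay lower, and Fth1 shrank to -0.06 ± 0.15, while it was -0.39 without corticosterone 1. Without both libraries Ftl1 differed by -0.34 ± 0.18, Slc40a1 by -1.25 ± 0.36, Slc48a1 by -0.49 ± 0.21 and Tfrc by 0.29 ± 0.16.

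Of the 19 detoxification genes and other Nrf2 targets tested, 13 lay lower and 6 higher (median -0.13), with 2 at an unadjusted p under 0.05. Nqo2, the relative of Nqo1 that uses dihydronicotinamide riboside, stood at 17.0, 14.5 and 16.1 CPM in corticosterone against 24.5, 22.3 and 17.9 CPM in vehicle, without overlap (log2 difference -0.44 ± 0.14, edgeR adjusted p = 0.364). Ephx1, a microsomal epoxide hydrolase, went the other way, at 102, 199 and 175 CPM against 108, 102 and 92.4 CPM. Corticosterone 2 and 3 were high and corticosterone 1 lay among the vehicle libraries (log2 difference 0.66 ± 0.22, adjusted p = 0.365). Without corticosterone 1, edgeR called Ephx1 (0.89, adjusted p = 0.0442), among 29 of 14607 genes called in that setting. It drops the corticosterone library lowest in Ephx1 and keeps corticosterone 2, whose label is doubted. In each other alternative, 0 genes of the list were called. Nqo2 was the 1 of the 19 that lay lower without overlap, and 0 lay higher. Esd and Cyb5r1, the most abundant of the list, differed by -0.12 ± 0.09 and -0.16 ± 0.10. Of the 19, 13 again lay lower without corticosterone 2 and vehicle 2, and the differences were -0.35 ± 0.19 for Nqo2, 0.47 ± 0.25 for Ephx1, -0.15 ± 0.14 for Esd and -0.22 ± 0.12 for Cyb5r1.

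**Figure D4:**
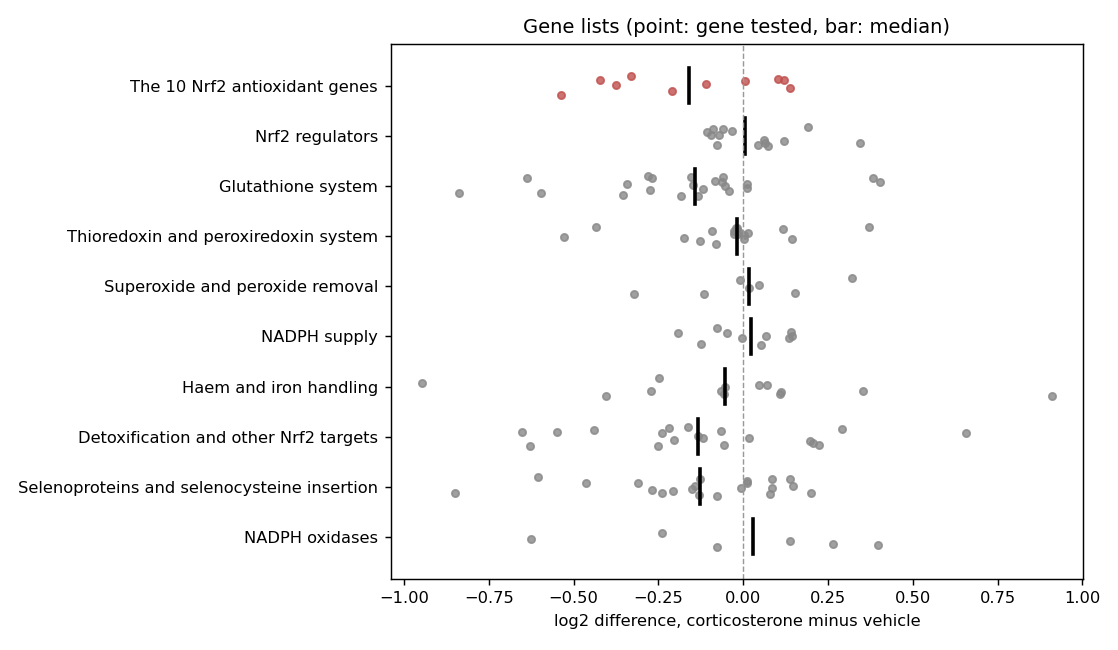
Log2 difference, corticosterone minus vehicle, of each gene tested in the 10 Nrf2 antioxidant genes (top) and in 9 lists around them, with the median of each as a bar. Medians lie between -0.16 and 0.03, and no gene shown passed the test over all genes.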

How the data were processed

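The deposited values are unnormalised read counts, 1 row a gene and 1 column a library (6 in all). Tools named in the submitters' processing notes are HTSeq 0.6.1, HISAT2 2.0.5 and DESeq2 1.24.0, with the build mm10. For annotation release, strand setting and filters nothing is given in the sources used here. Libraries were made from poly(A) RNA, per the labels' protocols, with a NEBNext Ultra kit that is not stated to mark strand.

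Libraries were grouped by their titles. The contrast, corticosterone minus vehicle, used the quasi-likelihood test of edgeR 4.0.16 under R 4.3.3 (two-sided, TMM scaling, filterByExpr, no block) on 14450 genes, with Benjamini-Hochberg adjustment over all of them and a threshold of 0.05. The scripts were tested on simulated data. Intervals of 95% come from the same fit and are unadjusted. Counts of 3, taken as a floor for counting error alone, equalled 0.103 to 0.125 CPM. Gene positions and exon lengths are from GENCODE M21 (GRCm38, which mm10 denotes), which held 98.95% of the gene identifiers.

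The 10 genes, the lists and the motifs were chosen with earlier results of these data known. The text names the 10 genes, the 3 label-check genes, for each list the 2 genes with the smallest p and the 2 with the highest mean CPM, and the 3 genes most like Gpx3; Keap1, Tfrc and the marker genes were added. Selenoproteins and Mymk were matched by older symbols, and 1 listed regulator was not analysed here. Alternatives were DESeq2 1.42.0, limma-voom (limma 3.58.1), 3 other scalings, no count filter, replicate number as a block, each library left out, and both libraries numbered 2 left out.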

Additional observations from a re-analysis of the deposited data

How the results depend on the processing

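Of the 10 genes, 0 were called in any of the 14 alternatives (smallest adjusted p = 0.0746, Gpx1 without vehicle 3). The count over all genes was 0 in the main edgeR test, with 1707 at an unadjusted p under 0.05. It was 138 by DESeq2, 0 by limma-voom, 3 without both libraries numbered 2, and 0 to 29 with 1 library left out (29 without corticosterone 1, 11 without vehicle 3). Of the 3 without both libraries numbered 2, 2 were among Fkbp5, Tsc22d3 and Per1, by which those libraries were chosen. In the pathway lists, the detoxification genes had 0 to 1 call with 1 library left out, and no other pathway list had any. The number of the 10 without overlap was 2 under each scaling and 5 without both libraries numbered 2, where 37.1% of all genes did not overlap.

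Nfe2l2, Nqo1, Gclc, Gclm, Gpx1 and Sod2 kept their direction under each alternative. Gpx3 turned to 0.674 without both libraries numbered 2 and ran from -0.95 to 0.385 with 1 library left out. Hmox1 turned to -0.022 without both libraries numbered 2. Srxn1 ran from -0.025 to 0.255 with 1 library left out. Txnrd1 was -0.013 with upper quartile scaling, -0.044 with library totals alone and -0.041 to 0.03 with 1 library left out. The causes were not tested. The median of all genes lay between -0.044 and 0.009 under every setting.

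No pairing by replicate number was seen: deviations from the group means correlated at -0.153, -0.266 and -0.325 for the same numbers, and no library correlated best with its own number (0.385 for corticosterone 3 and vehicle 2). The groups are those of the labels, which are doubted for corticosterone 2 and vehicle 2, so the check cannot settle pairing. With the replicate block edgeR called 0 genes, and Nfe2l2 differed by -0.21 (adjusted p = 0.599). Nqo1, with 91 to 164 counts a library, is the least precisely counted of the 10, and 3 libraries a label limit every comparison.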

Other observations

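Selenoproteins and the genes that insert selenocysteine, on which Gpx1, Gpx3 and Txnrd1 depend, gave 13 lower and 8 higher of 21 tested (median log2 difference -0.13), with 0 called by edgeR, DESeq2 or limma-voom and 2 at an unadjusted p under 0.05, against 11.8% of all genes. Eefsec, the elongation factor that delivers selenocysteine to the ribosome, stood at 6.11, 3.36 and 4.60 CPM in corticosterone 1, 2 and 3, against 7.47, 7.62 and 6.30 CPM in vehicle 1, 2 and 3. The groups did not overlap (log2 difference -0.61 ± 0.23, edgeR adjusted p = 0.389). Eefsec was the 1 of the 21 that lay lower without overlap, against 8.19% of all genes, and 2 lay higher, against 8.41%. Selenow, a small selenoprotein gene abundant in muscle, stood at 34.5, 27.4 and 36.7 CPM in corticosterone, against 48.2, 54.3 and 33.3 CPM in vehicle, with the top values in vehicle 1 and 2 as Gpx1 and Gpx4 were (log2 difference -0.46 ± 0.19, adjusted p = 0.408). The most abundant, Selenof and Selenot, differed by -0.24 ± 0.14 and -0.08 ± 0.09. Without corticosterone 2 and vehicle 2, 13 of the 21 again lay lower. Selenow then shrank to -0.20 ± 0.19 (-0.31 without vehicle 2 alone) and Eefsec to -0.36 ± 0.24, while Selenof differed by -0.24 ± 0.20 and Selenot by -0.03 ± 0.12.

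Of 13 genes of the NADPH oxidases, which make superoxide, 6 passed the count filter, 3 higher and 3 lower, and 0 were called by edgeR, DESeq2 or limma-voom, with 0 at an unadjusted p under 0.05. Nox4, a catalytic subunit, stood at 20.5, 24.7 and 18.9 CPM in corticosterone 1, 2 and 3, against 34.0, 46.2 and 18.7 CPM in vehicle 1, 2 and 3. Vehicle 1 and 2 were again the highest, and vehicle 3 was the lowest of all 6 (log2 difference -0.63 ± 0.29, edgeR adjusted p = 0.442). Rac1 and Noxo1 differed by -0.08 ± 0.08 and 0.40 ± 0.30. Of the 6, 1 lay higher without overlap, against 8.41% of all genes, and 0 lay lower, against 8.19%. Without corticosterone 2 and vehicle 2, 3 of the 6 lay lower, and Nox4 differed by -0.42 ± 0.28, Rac1 by -0.035 ± 0.12 and Noxo1 by 0.48 ± 0.44. Nox4 was -0.31 without vehicle 2 and -0.92 without vehicle 3.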
